A study of Mus musculus with 132 samples.

Results

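The redox defence genes Glrx, Txn1, Prdx1, Prdx2, Gpx1, Gpx3, Gpx4, Gclm, Sod1 and Cat were followed through single cells of mouse embryos. They are 10 of the 32245 genes in the count table and were taken by their gene names. Glrx was chosen by its measured rise from the 8-cell to the 32-cell stage, so the size of its change between the stages is a description and not a finding, in either treatment. The other members were listed by name as genes of the same defence, with earlier results of these data known. The cells came from embryos of C57BL/6 x DBA F1 parents, and were cultured from the 2-cell stage in medium that held either a synthetic copy of a microRNA, the miR-381-3p mimic, or a scrambled mimic as control, at 5 or 10 µM. They were picked by hand on embryonic day 2.5, when embryos had 8 cells, or on day 3.5, when they had 32, and sequenced with Smart-seq2, which reads polyadenylated RNA along the whole transcript without molecular identifiers. There were 4 groups, of 30 cells of 8-cell control, 24 of 8-cell mimic, 39 of 32-cell control and 39 of 32-cell mimic embryos. The mouse strain and the culture were common to all groups. Each group drew on 3 to 5 embryos, but no label ties a cell to its embryo or to its dose, so each group is 1 sample and no test between groups was made. By the study's design 10 µM went with the earlier and 5 µM with the later stage, for both mimics alike, so that dose and stage cannot be told apart.

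Respiring cells make superoxide, which superoxide dismutase turns into hydrogen peroxide. Catalase, the peroxiredoxins and the glutathione peroxidases then break the peroxide down, and the peroxiredoxins are reset by thioredoxin while the glutathione peroxidases draw on glutathione. Glutaredoxin uses glutathione to free protein thiols to which glutathione has become attached. Preimplantation embryos change from a metabolism based on pyruvate to increasing use of oxygen and glucose as the blastocyst forms, and this system is known to guard them in culture.

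The sequence that the mimic copies is shown first, because the sites that could pair with it were looked for in the members. It is given 5′ to 3′ as RefSeq lists it for mouse build GRCm38.p6 (chr12:109726870-109726891, plus strand), with bases 2 to 8, the seed that pairs with target messages, in capitals.
mmu-miR-381-3p: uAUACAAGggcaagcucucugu
The letters CTTGTATA in a 3′ UTR make an 8-base site. Their first 7 pair with the whole seed and the last lies opposite base 1, and either the first 7 or the last 7 alone make a 7-base site. None of the 10 members held the 8-base site in its longest annotated 3′ UTR, as against 3.12% of 20741 genes. Gclm, whose 3′ UTR of 4335 bases was the longest among the members, held the first 7 letters at base 1035 and the last 7 at base 1271, counted from the first base after the stop codon. They are shown because no other member had a site, with the bases around them (GRCm38, GENCODE annotation, plus strand of chromosome 3) and with the matching letters in capitals.
Gclm site 1: aaaaggtgtCTTGTATgccaatattt
Gclm site 2: ttatattgaTTGTATAtaatgctaaa
Sites of any of these kinds were present in 21.5% of all genes with a 3′ UTR and in 27.1% of the 6565 such genes at 20 CPM or more, so that 1 member of 10 with a site is not a result about the members. CPM here is the count of a gene per 1000000 counts of all genes but the mitochondrial ones, summed over the cells of a group.

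The upstream sequences of the members were searched for the antioxidant response element, TGACNNNGC on either strand, which the stress factor NRF2 is known to bind. The 250 bases before each start site that RefSeq lists (GRCm38.p6) were read. Prdx1, Gclm and Sod1 each held a copy, all on the minus strand, and the other 7 members held none in these windows, in any of the start sites listed for them. The element lay in 10.2% of all 32536 windows of this length and in 11.5% of the 27025 genes that have a window. The Prdx1 copy also holds the letters of the AP-1 motif, TGAGTCA on either strand. These letters stand once more in the Prdx1 window and once in the Glrx window, outside any such element, in no window of the other 8 members, and in 4.45% of all windows. The Glrx window is shown beside the 3 windows that hold the element because Prdx1 and Sod1 are the members whose levels followed Glrx most closely over all cells. That order largely carries the stage rise by which Glrx was chosen, and was not read as a link between the windows. Capitals mark the element.
Glrx, chr13:75839635-75839884, plus strand: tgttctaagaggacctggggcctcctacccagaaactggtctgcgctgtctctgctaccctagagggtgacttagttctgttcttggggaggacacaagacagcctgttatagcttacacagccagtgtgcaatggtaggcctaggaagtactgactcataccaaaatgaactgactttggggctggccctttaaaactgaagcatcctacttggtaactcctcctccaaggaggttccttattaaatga
Prdx1, chr4:116685349-116685598, plus strand: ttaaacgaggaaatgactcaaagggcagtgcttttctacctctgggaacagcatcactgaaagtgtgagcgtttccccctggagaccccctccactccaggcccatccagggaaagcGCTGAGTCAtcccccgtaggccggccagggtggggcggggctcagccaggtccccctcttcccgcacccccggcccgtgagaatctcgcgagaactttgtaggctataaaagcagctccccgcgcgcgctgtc
Gclm, chr3:122245307-122245556, plus strand: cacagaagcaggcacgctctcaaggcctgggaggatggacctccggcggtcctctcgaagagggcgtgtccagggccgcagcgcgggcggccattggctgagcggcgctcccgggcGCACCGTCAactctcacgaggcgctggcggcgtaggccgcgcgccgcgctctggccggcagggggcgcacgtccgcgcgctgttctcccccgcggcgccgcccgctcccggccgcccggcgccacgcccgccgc
Sod1, chr16:90220512-90220761, plus strand: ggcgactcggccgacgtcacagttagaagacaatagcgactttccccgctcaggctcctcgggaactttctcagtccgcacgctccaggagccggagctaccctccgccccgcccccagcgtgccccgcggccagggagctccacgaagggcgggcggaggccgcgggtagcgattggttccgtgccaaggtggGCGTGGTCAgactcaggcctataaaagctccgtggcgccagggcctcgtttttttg
The element began 133, 134 and 56 bases before the start site in Prdx1, Gclm and Sod1. A match of letters is a description of the sequence and was not read as a binding site.

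Total counts per cell ranged from 544866 to 3461022 and genes with a count from 3243 to 8983, and no pair of cells held identical values. The lowest number of genes was 6373 in 8-cell control, 3243 in 8-cell mimic, 5988 in 32-cell control and 5919 in 32-cell mimic. Cells with the fewest genes thus lay on the mimic side of the 8-cell comparison. With no count in a group, the 3 counts that such a 0 allows came to between 0.0527 and 0.0971 CPM. The groups differed in their chromosomal makeup. Of 30 cells of the 8-cell control group, 23 had more Xist than Y-linked counts and 7 had more Y-linked counts, and of the 24 cells of 8-cell mimic 14 had the first pattern, 8 the second and 2 neither. All 39 cells of 32-cell control had more Y-linked counts and all 39 of 32-cell mimic had more Xist, so that treatment and sex chromosomes cannot be told apart at the 32-cell stage. Cells also fell into runs of consecutive numbers in their titles, 2 in 8-cell control, 1 in 8-cell mimic, 2 in 32-cell control and 3 in 32-cell mimic, which the labels do not explain. Of 8 markers of cumulus and granulosa cells, which surround the egg, 4 had no count, and the list summed to at most 0.657 CPM in any group.

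Glrx (chromosome 13, 75839868 to 75850154, plus strand) encodes glutaredoxin 1, which takes glutathione off protein thiols. It had no count in any of the 30 cells of 8-cell control, which allows up to 0.0817 CPM. In 8-cell mimic 1 of 24 cells held all 14 counts, at 15.4 CPM in that cell and 0.453 CPM [0.248 to 0.760] over the group. At the 32-cell stage every cell had it. Pooled Glrx was 341 CPM [336.5 to 346] in control, where single cells ranged from 108.6 to 854 CPM with a median of 341 CPM. In mimic it was 193.5 CPM [190 to 197], and single cells ranged from 22.6 to 607 CPM with a median of 185 CPM. Cells of the 2 stages did not overlap in either treatment. Here and below, square brackets hold exact Poisson 95% intervals of pooled CPM and counting intervals of ratios. They cover counting error only, because amplified copies of a molecule cannot be recognised without molecular identifiers, and they leave out differences between embryos. The pooled level was at least 4179-fold higher at the 32-cell stage in control, and 427-fold higher in mimic [254.5 to 782].

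**Figure D1:**
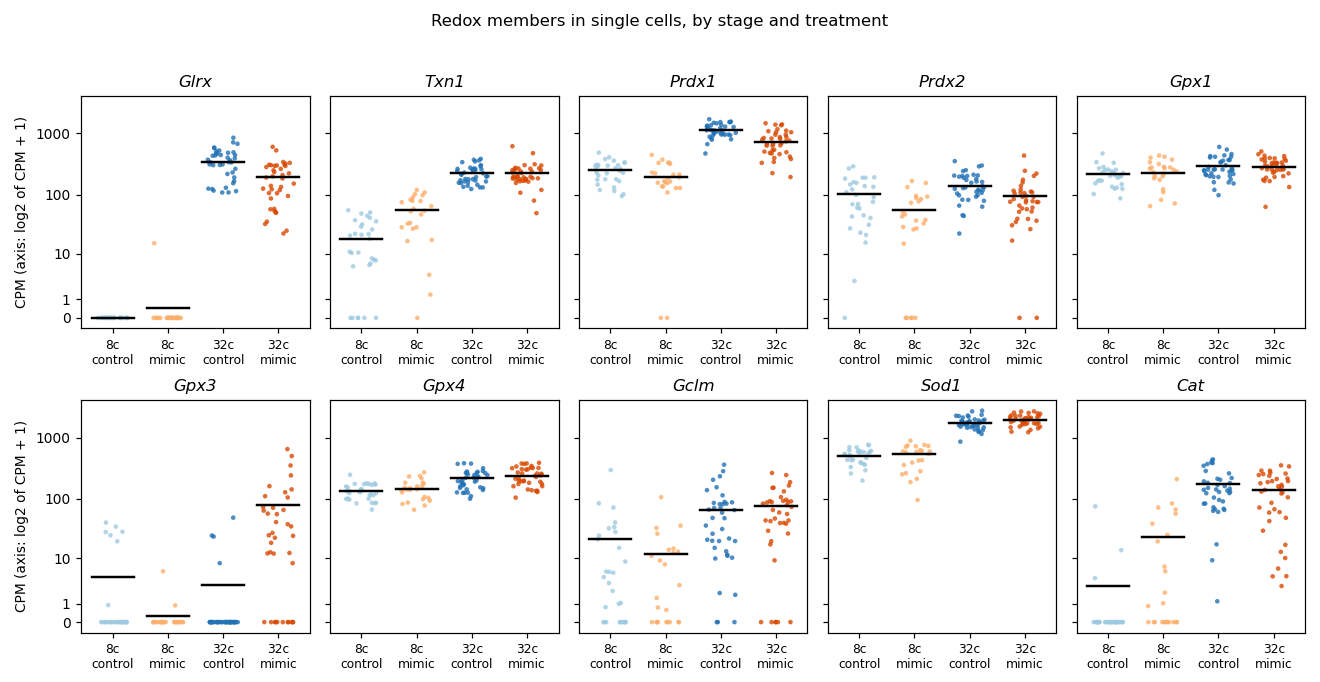
CPM of each member in every cell, on an axis of log2(CPM + 1), for the 8-cell (8c) and 32-cell (32c) stage and both treatments, where each point is a cell and each black bar the pooled CPM of the group. Glrx sits at 0 in all 30 cells of 8-cell control and in 23 of 24 cells of 8-cell mimic, and between 22.6 and 854 CPM in every cell of the 32-cell stage.

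Compared between the stages in control embryos, 6 members were at least 2-fold higher at the 32-cell stage and 0 were lower, of the 9 that reached 20 CPM in either group. Over all genes that reached it, 30% were at least 2-fold higher and 20.1% lower. The 6 were Glrx, Txn1, Prdx1, Gclm, Sod1 and Cat. The member that did not reach 20 CPM, Gpx3, had 4.36 and 3.06 CPM. The median log2 change of the 9 was 1.80, against 0.20 over all genes. Without Glrx, which was chosen by this change, 5 of 8 were higher and the median was 1.69. The other members were listed with earlier results of these data known, so the counts without Glrx are descriptions too, in both treatments. In mimic embryos all 10 members reached 20 CPM, 7 were at least 2-fold higher and 0 lower, beside 29.1% and 18.8% of all genes, and the median log2 change was 1.96 against 0.20. The 7 were the same 6 and Gpx3, and without Glrx they were 6 of 9 with a median of 1.93. Both stage comparisons hold the sex chromosomes and the dose beside the stage. Among cells with more Y-linked counts alone, 7 members were at least 2-fold higher in control, the 6 and Gpx4 at a log2 change of 1.002, while Prdx1 was at 1.81 and Gpx1 at 0.03 in place of 0.42. Among cells with more Xist alone, 7 members were higher in mimic.

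**Figure D2:**
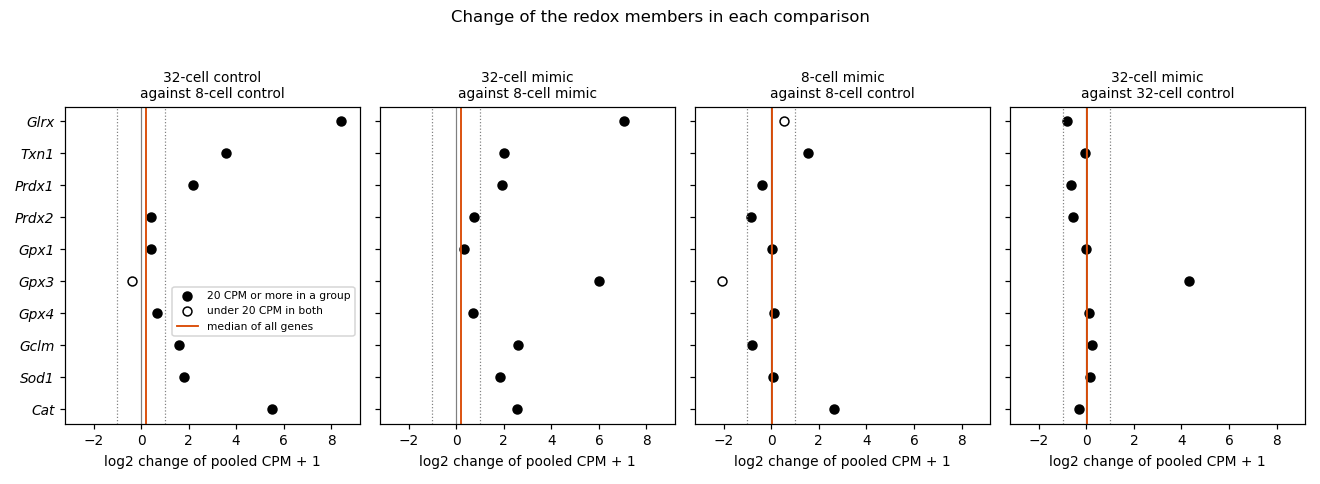
The log2 change of pooled CPM + 1 of each member in the 4 comparisons, with dotted lines at a 2-fold change, an orange line at the median of all genes, and open circles for members under 20 CPM in both groups. Both stage comparisons place 6 members, Glrx, Txn1, Prdx1, Gclm, Sod1 and Cat, to the right of the upper dotted line, while most members lie between the lines where mimic is compared with control.

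Txn1 (chromosome 4, 57943373 to 57956411, minus strand), the thioredoxin of the cytosol that resets peroxiredoxins, was low in 8-cell control and differed there from mimic. Pooled Txn1 was 18.5 CPM [17.1 to 19.9] in 8-cell control and 55.5 CPM [52.95 to 58.2] in 8-cell mimic. It was 230 CPM [226 to 234] in 32-cell control and 224 CPM [220 to 228] in 32-cell mimic. The pooled level of 8-cell mimic thus lay between that of 8-cell control and those of both later groups. In 8-cell control cells ranged from 0 to 55.3 CPM with a median of 14.6 CPM, and in 8-cell mimic from 0 to 119.5 CPM with a median of 53.8 CPM. These groups overlapped, with 11 of 24 mimic cells above every control cell. In 32-cell control the lowest cell had 123.9 CPM, above every 8-cell control cell, whereas in mimic 36 of 39 cells of the later stage were above every earlier one. The ratio between the stages was 12.5 in control [11.55 to 13.5] and 4.03 in mimic [3.83 to 4.24]. Against the 2 cells left without the first run of 8-cell control, at 4.24 CPM, the log2 change in control was 5.46 in place of 3.57.

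Prdx1 (chromosome 4, 116685544 to 116700822, plus strand) and Prdx2 (chromosome 8, 84969587 to 84974834, plus strand) are peroxiredoxins, peroxide-removing enzymes of the cytosol. Pooled Prdx1 was 251 CPM [246 to 256] in 8-cell control, 194 CPM [189 to 199] in 8-cell mimic, 1144 CPM [1135 to 1153] in 32-cell control and 739 CPM [731 to 746] in 32-cell mimic. Single cells spanned 95.02 to 488 CPM, 0 to 447 CPM, 472 to 1705 CPM and 195 to 1467 CPM in the same order, with medians of 250, 176.3, 1126 and 695 CPM. Later cells thus lay mostly above earlier ones, 38 of 39 above every 8-cell cell in control and 32 of 39 in mimic. Prdx1 was 4.56-fold higher at the 32-cell stage in control and 3.81-fold in mimic. Prdx2 moved less, with 104.6, 56.8, 141.3 and 96.5 CPM in the same order and single cells between 0 and 436 CPM. Its ratio between the stages was 1.35 in control and 1.70 in mimic, and its cells overlapped in every comparison. Against the 2 cells that are left without the first run of 8-cell control, the log2 change between the stages in control was -0.76 in place of 0.43, and in mimic it was 0.32 in place of 0.75 without the third run of the later stage. Exons of Prdx2 overlap those of Junb and Rnaseh2a on the opposite strand, and reads that do not mark strand cannot tell such genes apart.

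Sod1 (chromosome 16, 90220754 to 90226329, plus strand), the copper and zinc superoxide dismutase of the cytosol, had the highest level of the members at both stages. Pooled Sod1 was 506 CPM [499 to 514] in 8-cell control and 535 CPM [527 to 543] in 8-cell mimic. It was 1760 CPM [1749 to 1771] in 32-cell control and 1945 CPM [1933 to 1957] in 32-cell mimic. The stages were apart in every cell. Cells ranged up to 766 CPM in 8-cell control and from 864 CPM in 32-cell control, and up to 898 CPM in 8-cell mimic and from 1228 CPM in 32-cell mimic. The ratio between the stages was 3.48 in control and 3.64 in mimic.

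Cells of the 32-cell stage lay entirely above those of the 8-cell stage for 3 members in control, Glrx, Txn1 and Sod1, and for 2 in mimic, Glrx and Sod1. Over all genes at 20 CPM or more this was so for 0.455% in control and 0.224% in mimic. Both counts include Glrx, which was chosen by that change.

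Cat (chromosome 2, 103453849 to 103485160, minus strand) encodes catalase, which splits hydrogen peroxide in peroxisomes. Shares of cells are given with exact Clopper-Pearson 95% intervals, which treat cells as independent although they share embryos, and which cover counting error only. In 8-cell control 3 of 30 cells had a count (10% [2.11 to 26.5]), with a highest cell at 75.55 CPM that held 78.3% of the counts of its group. In 8-cell mimic 13 of 24 cells had a count (54.2% [32.8 to 74.5]), with a median of 0.929 CPM. The highest mimic cell, at 211.4 CPM, held 35.6% of the counts of its group. After each cell was thinned to 500000 counts these were 3 and 11 cells. Pooled Cat was 2.89 CPM [2.36 to 3.49] in 8-cell control, 23 CPM [21.3 to 24.8] in 8-cell mimic, 175 CPM [171.2 to 178] in 32-cell control and 139.2 CPM [136 to 142.5] in 32-cell mimic. At the 32-cell stage all cells had it, but unevenly, from 1.18 to 443 CPM in control and from 2.87 to 355 CPM in mimic. The level was 60.5-fold higher at the 32-cell stage in control [49.99 to 74.01] and 6.05-fold in mimic [5.61 to 6.55]. Against the 2 cells of the second run of 8-cell control alone, at 7.07 CPM, the log2 change in control was 4.44 in place of 5.50.

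Gclm (chromosome 3, 122245557 to 122270732, plus strand) is the modifier subunit of glutamate-cysteine ligase, the first enzyme of glutathione synthesis. Its stage change depended on which run of cells was read. Pooled Gclm was 21.3 CPM [19.8 to 22.8] in 8-cell control, of which 1 cell at 298 CPM held 41.9%, and 11.8 CPM [10.6 to 13.1] in 8-cell mimic. It was 65.3 CPM [63.2 to 67.45] in 32-cell control and 77.6 CPM [75.2 to 79.99] in 32-cell mimic. Cells with a count numbered 20 of 30, 15 of 24, 36 of 39 and 33 of 39 in that order, and 17, 12, 36 and 33 after thinning to 500000 counts. The ratio between the stages was 3.07 in control and 6.57 in mimic. In control, the first run of 24 cells of the 32-cell stage had 41.7 CPM and the second run of 15 cells 100.4 CPM. Without the second run the log2 change was 0.94 in place of 1.58, under 2-fold, and without the first it was 2.19. Against the 2 cells left without the first run of 8-cell control, at 7.77 CPM, it was 2.92, above the 2.62 of mimic. Exons of Gclm overlap Gm17494 on the opposite strand and the pseudogene Gm6061 on the same strand, so that its counts are uncertain to that extent.

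The glutathione peroxidases reduce peroxides at the expense of glutathione, Gpx1 (chromosome 9, 108338903 to 108340343, plus strand) in the cytosol, Gpx4 (chromosome 10, 80047166 to 80056439, plus strand) on lipid peroxides within membranes, and Gpx3 (chromosome 11, 54902453 to 54910377, plus strand) as a secreted enzyme. Gpx1 and Gpx4 had a count in every cell of all groups and moved little. Pooled Gpx1 was 220 CPM [215 to 224.5] in 8-cell control, 227 CPM in 8-cell mimic, 294 CPM in 32-cell control and 288 CPM [283 to 292] in 32-cell mimic. Single cells spanned 63.04 to 604 CPM over the 4 groups. Pooled Gpx4 was 135, 144.1, 217 and 237 CPM in the same order, with single cells between 66.4 and 391 CPM. The ratio between the stages was 1.34 and 1.27 for Gpx1 and 1.61 and 1.65 for Gpx4, in control and mimic, and the cells of the stages overlapped for both.

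Gpx3 was the member that differed most between mimic and control at the 32-cell stage. It had a count in 7 of 30 cells of 8-cell control (23.3% [9.93 to 42.3]), 2 of 24 of 8-cell mimic (8.33% [1.03 to 27]), 4 of 39 of 32-cell control (10.3% [2.87 to 24.2]) and 28 of 39 of 32-cell mimic (71.8% [55.1 to 85]). Thinning to 500000 counts left 7, 1, 4 and 28 cells. Pooled Gpx3 was 4.36, 0.259, 3.06 and 79.8 CPM [77.4 to 82.2]. At the 32-cell stage control cells went up to 49.2 CPM, and mimic cells had a median of 24.9 CPM and a highest value of 653 CPM. In 15 of 39 mimic cells Gpx3 was above every control cell, and in 11 it had no count, so the groups overlapped.

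Mimic was next compared with control at the 8-cell stage, where both treatments held cells of both chromosomal types. Of the 8 members that reached 20 CPM, 2 were at least 2-fold higher in mimic, Txn1 and Cat, and 0 were lower, beside 6.96% and 6.09% of all genes. Both reached 20 CPM in mimic alone, with 18.5 and 2.89 CPM in control. The median log2 change was 0.06, against 0.03 over all genes. Txn1 was 3.01-fold higher [2.75 to 3.29], and 21 of 24 mimic cells were above the control median. Its values within cells with more Xist were 19.6 CPM in control and 58.6 CPM in mimic, and within cells with more Y-linked counts 15.8 and 53.4 CPM, so the difference was as large within each type. Cat was 7.97-fold higher [6.49 to 9.87]. Its pooled mimic level of 23 CPM was near the 20 CPM minimum, and 1 cell held 35.6% of its mimic counts. Within the Xist type it had 4.10 CPM in control and 26.9 CPM in mimic, and within the Y type no count in 7 control cells and 17.9 CPM in 8 mimic cells, which is under 20 CPM. Prdx2 and Gclm were lower in mimic, by ratios of 0.543 [0.513 to 0.575] and 0.555 [0.489 to 0.630], which is within 2-fold. The second run of 8-cell control was only 2 cells, with 239 CPM of Prdx2, and against these cells alone the log2 change was -2.06 for Prdx2, 0.55 for Gclm in place of -0.80, 3.43 for Txn1 and 1.57 for Cat.

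At the 32-cell stage all 10 members reached 20 CPM. Gpx3 was the 1 member at least 2-fold higher in mimic, by 26.1-fold [22.4 to 30.5], and 0 were at least 2-fold lower, beside 6.87% and 5.36% of all genes. The median log2 change was -0.04, against 0.01 over all genes. Glrx had the largest decrease of the members, with a mimic to control ratio of 0.567 [0.553 to 0.581]. In 36 of 39 mimic cells Glrx was at or under the control median of 341 CPM, and in 13 of 39 it was below every control cell, while 3 control cells were above every mimic cell. Prdx1 had a ratio of 0.646 and Prdx2 of 0.683, and Txn1, Gpx1, Gpx4, Sod1, Gclm and Cat lay between 0.797 and 1.19. Every mimic cell here carried Xist and every control cell Y-linked transcripts, and no value within 1 type can be had at this stage.

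The runs of cell numbers were set side by side because a run may stand for an embryo or a collection, which the labels do not say. Glrx had 339 CPM in the first control run (24 cells) and 345 CPM in the second (15 cells). In mimic it had 204 CPM in the first run (18 cells), 111.9 CPM in the second (12 cells) and 268 CPM in the third (9 cells). All mimic runs were thus below both control runs in pooled level, and they differed among themselves more than the control runs did. These pooled values mix the cell classes described below, whose shares differed between the runs. Gpx3 had 3.76 and 2.01 CPM in the control runs, and 33.7, 173 and 37.55 CPM in the mimic runs. Without the second mimic run pooled Gpx3 in mimic was 35.4 CPM and its log2 change against control 3.17 in place of 4.32, and without the third run the log2 change of Glrx was -1.07 in place of -0.82, past 2-fold. Without the second run it was -0.55. Prdx1 had 1163 and 1116 CPM in the control runs and between 638 and 810 CPM in the mimic runs. Prdx2 did not keep this order, with 153.3 and 123 CPM in the control runs and 67.9, 74.6 and 156.9 CPM in the mimic runs.

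**Figure D3:**
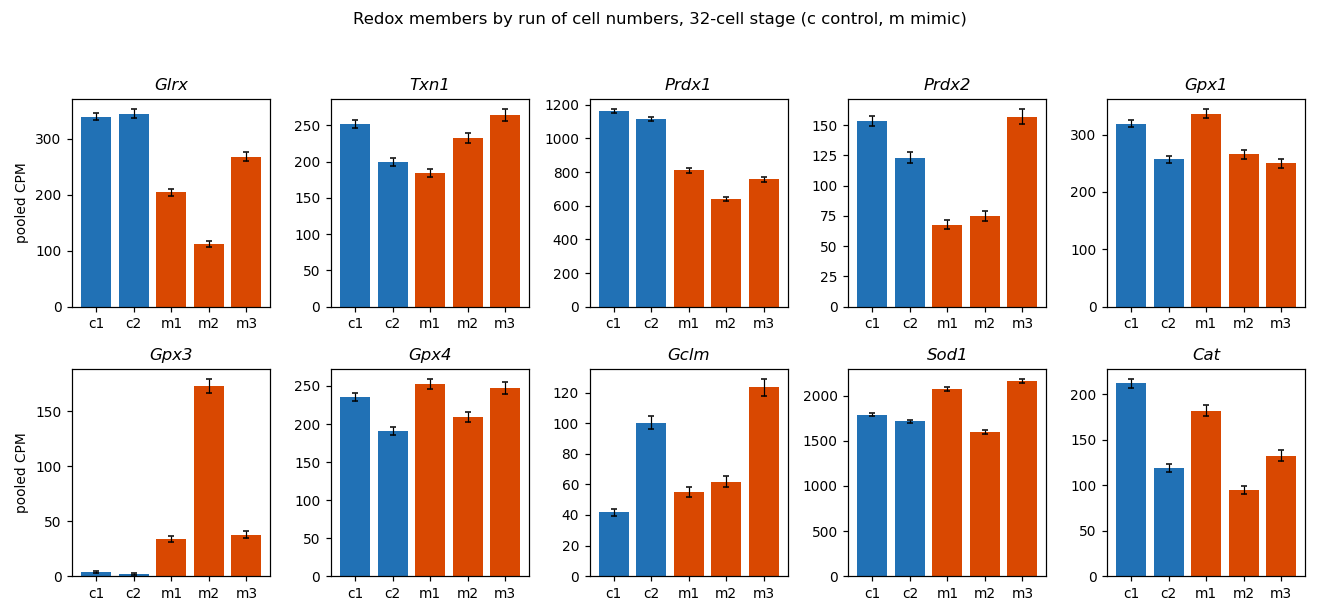
Pooled CPM of each member in the runs of consecutive cell numbers at the 32-cell stage, 2 of control (c1 and c2, blue) and 3 of mimic (m1 to m3, orange), with exact Poisson 95% intervals that cover counting error only. With all cells of a run pooled, Glrx and Prdx1 are lower in all mimic runs than in both control runs, and Gpx3 is highest in the second mimic run at 173 CPM. The runs hold different shares of the cell classes described below.

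To place the members in the lineages of the blastocyst, all cells were clustered without the members, the wider redox list below and the lineage markers. The inner cell mass (ICM) gives rise to the embryo and the trophectoderm (TE) to the placenta. The cells of the 8-cell stage formed a cluster of their own, and the 78 cells of the 32-cell stage formed the others. The resolution of the clustering was raised in steps until the cells of the 32-cell stage split, so that this split was sought. A cluster of 41 cells had higher levels of all 9 ICM markers, among them Nanog and Pdgfra, and a cluster of 37 cells of all 9 TE markers, among them Krt8 and Gata3, and they are called ICM-like and TE-like. The ICM-like class held 25 of 39 control cells (64.1% [47.2 to 78.8]) and 16 of 39 mimic cells (41.0% [25.6 to 57.9]). By run the shares were 70.8 and 53.3% in control and 38.9, 58.3 and 22.2% in mimic, so that the second mimic run lay above the second control run. The mimic share was 38.5% with all genes in the clustering and 43.6% with cells placed by their marker score. Because the clusters were made from these same cells, the values between them are descriptions.

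Glrx was higher in ICM-like than in TE-like cells. In control it was 463 CPM [456 to 471] against 178 CPM [173 to 184], with cells from 305 to 854 CPM and from 108.6 to 393 CPM. In 13 of 14 TE-like cells it was below every ICM-like cell. In mimic it was 258 CPM [251.5 to 266] against 154.1 CPM [150 to 158.4], with cells from 32.7 to 607 CPM and from 22.6 to 310 CPM, so that the classes overlapped widely. The ratio of ICM-like to TE-like was 2.60 in control and 1.68 in mimic. Compared within a class, the mimic to control ratio was 0.558 in ICM-like cells [0.541 to 0.576] and 0.864 in TE-like cells [0.829 to 0.900]. Without the second mimic run the log2 change was -0.36 in place of -0.84 in ICM-like cells, and 0.01 in place of -0.21 in TE-like cells (179.6 CPM in mimic, 178.4 CPM in control). Without the second control run it was 0.07 in TE-like cells. The lower level in mimic thus kept its direction without any 1 run in ICM-like cells, but not in TE-like cells, and the difference of the ratios was not tested. The log2 ratio of ICM-like to TE-like in mimic was 1.002 in place of 0.74 without the second mimic run. In the second mimic run the median was 86.8 CPM over 7 ICM-like cells and 35.8 CPM over 5 TE-like cells, below the medians of the same class in every other run of the stage. By class the mimic runs were not all below the control runs. In the third mimic run the medians were 454 CPM over 2 ICM-like and 235.2 CPM over 7 TE-like cells. The control runs had 445.8 and 439.2 CPM in ICM-like and 125.8 and 191.7 CPM in TE-like cells. In the first mimic run the medians were 304.2 CPM over 7 ICM-like and 139.6 CPM over 11 TE-like cells.

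**Figure D4:**
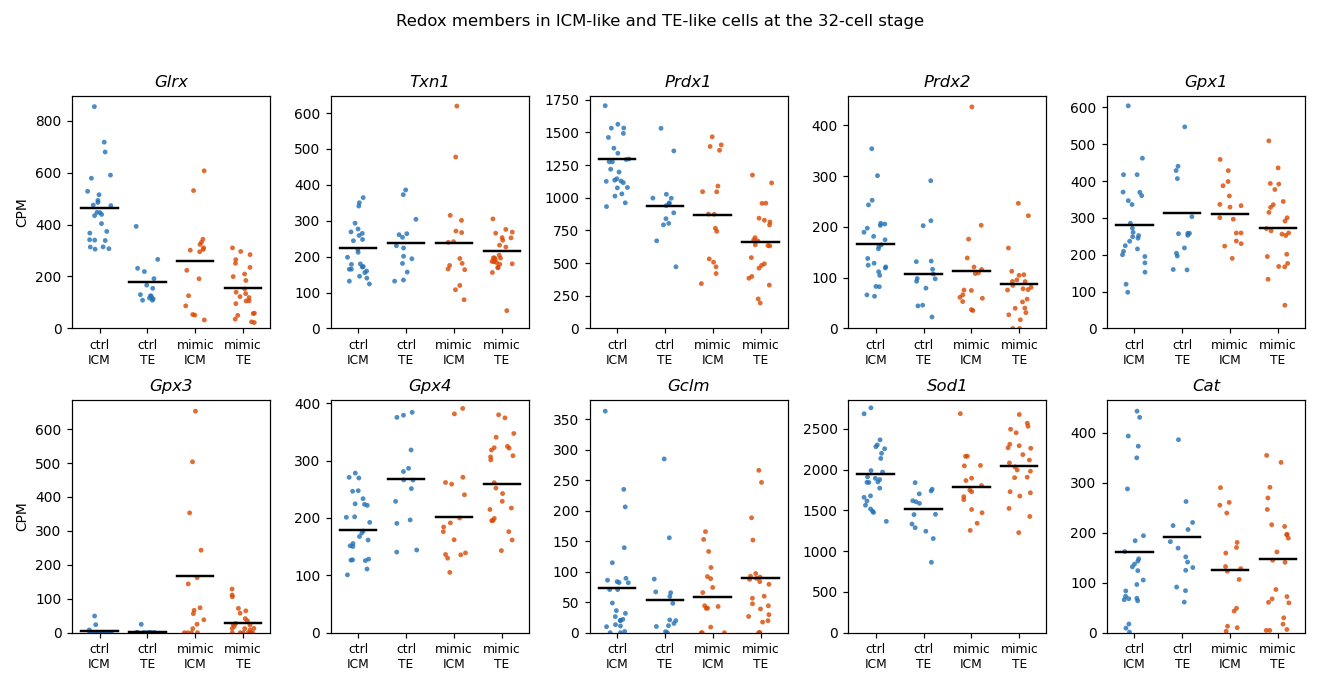
CPM of each member in the cells of the 32-cell stage by class (ICM, ICM-like; TE, TE-like) and treatment, on linear axes from 0, where points are cells and black bars the pooled CPM. Glrx in control separates the classes nearly completely, at 305 to 854 CPM in ICM-like and 108.6 to 393 CPM in TE-like cells, and Gpx3 is spread up to 653 CPM in ICM-like mimic cells.

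Of the 9 members at 20 CPM or more, 1 was at least 2-fold higher in ICM-like than in TE-like cells of control, Glrx, and 0 were lower, beside 11.9% and 10.1% of all genes. In mimic, where all 10 reached 20 CPM, it was Gpx3 alone, with 0 lower, beside 7.91% and 8.16% of all genes. Gpx3 had 165.8 CPM [160 to 171.6] in ICM-like and 27.6 CPM [25.8 to 29.4] in TE-like mimic cells, a ratio of 6.01. It had a count in 12 of 16 and 16 of 23 of them, so the classes differed in level more than in the number of cells with a count. The median of its ICM-like cells was 243 CPM over 7 cells of the second mimic run and 38.1 CPM over 7 cells of the first. With all genes in the clustering, which moved 1 cell, the log2 ratio was 1.52 in place of 2.55, and without the second mimic run it was 1.31. In control Gpx3 was at 4.36 and 1.32 CPM, a ratio of 3.32 under the 20 CPM minimum, so mimic was higher than control in both classes, 38.0-fold in ICM-like and 20.98-fold in TE-like cells. The TE-like control level was 32 counts in 1 of 14 cells. When a run was left out the log2 change lay between 3.56 (without the second mimic run) and 6.30 (without the first control run) in ICM-like cells, against 4.96 with all runs. In TE-like cells it lay between 2.81 (without the first control run) and 4.84 (without the second), against 3.63.

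The other members differed less between the classes. Prdx1 was higher in ICM-like cells in both treatments, at 1296 against 940 CPM in control and 870 against 659 CPM in mimic, and so was Prdx2, at 166.3 against 107.7 CPM and 112.5 against 86.9 CPM. Gpx4 was lower in ICM-like cells in both, at 179 against 267.5 CPM and 201 against 259 CPM, and Cat had ratios of 0.846 and 0.856. For Sod1 and Gclm the order differed between the treatments. Sod1 was at 1941 against 1519 CPM in control and 1786 against 2042 CPM in mimic, and Gclm at 73.9 against 53.9 CPM in control and 58.3 against 89.3 CPM in mimic. The order of Gclm in mimic rested on the third run, without which the log2 ratio was 0.081 in place of -0.61. Cells of the classes overlapped for all of these members. Txn1 and Gpx1 lay between 0.894 and 1.14 as ratios of ICM-like to TE-like.

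Levels of different genes were compared per transcript length, since longer transcripts give more reads. With the longest annotated transcript as length, Sod1 came first in every group, at 790 CPM per kilobase in 8-cell control and 2746 CPM per kilobase in 32-cell control. In 8-cell control it was followed by Gpx1, Gpx4, Prdx1, Prdx2, Txn1, Gclm, Gpx3, Cat and Glrx, which was last with no count. In 32-cell control the order was Sod1, Prdx1, Gpx1, Glrx, Txn1, Gpx4, Prdx2, Cat, Gclm and Gpx3, with Glrx at 254 CPM per kilobase between Gpx1 at 274.5 and Txn1 at 219. In 32-cell mimic Glrx came after Gpx1, Gpx4 and Txn1, at 143.9 CPM per kilobase. Neighbours in these orders overlapped in their cells, except that Sod1 stood apart from Prdx1 at 499 CPM per kilobase in 32-cell control and at 322 in 32-cell mimic. With the mean length of a gene's transcripts Prdx1 was at 1126 and 727 CPM per kilobase, and the cells then overlapped in control but not in mimic. That length also put Prdx1 before Gpx4 in both 8-cell groups, Gpx4 before Txn1 in 32-cell control, and Cat and Gpx3 before Prdx2 in 32-cell mimic, and Glrx kept its place in every group.

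Over the cells of all groups the genes whose levels followed Glrx most closely were Spp1, Fabp5, Prdx1, Gstp1 and Ubb, with Spearman correlations of 0.884, 0.880, 0.878, 0.869 and 0.861 among 6774 genes at 20 CPM or more. Prdx1 is a member itself, and Sod1 was the next of the members at 0.808. Cells of both stages enter these values together, so the values largely carry the stage rise by which Glrx was chosen. They are given without a test. Within the 39 control and the 39 mimic cells of the 32-cell stage, taken separately, the lower of both correlations was highest for Spic at 0.647, Mgarp at 0.623, Fabp5 at 0.580, Deptor at 0.562 and Tat at 0.539. Spic is a marker of the ICM-like class, whose cells had more Glrx. Among the members, Prdx1 gave 0.411 in control and 0.625 in mimic and Sod1 0.422 and 0.410. Txn1, at 0.735 over all cells, gave -0.221 and 0.103, and Cat, at 0.683 over all cells, gave -0.211 and 0.108. Among pairs without Glrx, Prdx1 with Prdx2 gave 0.597 in control and 0.429 in mimic, and Prdx1 with Sod1 0.477 and 0.351. Gpx1 with Gpx4 gave 0.439 in control and -0.0798 in mimic. The median over all 45 pairs was 0.066 in 32-cell control and 0.114 in 32-cell mimic. Cells of a group share, in part, an embryo, so these are descriptions.

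The members were then set in a wider list of 77 redox genes in 10 families, of which 49 reached 20 CPM in the stage comparison in control. Of these, 27 were at least 2-fold higher at the 32-cell stage and 2 lower, beside 30% and 20.1% of all genes. Without the members 21 of 40 were higher and 2 lower. The list was also chosen with earlier results of these data known, so its counts are descriptions. Among the non-members Gss, which encodes glutathione synthetase, was at 6.02 and 596.5 CPM, a 99.2-fold difference. Gpx2, a glutathione peroxidase of epithelia, had no count in 8-cell control and 36.3 CPM in 32-cell control, at least 444.7-fold higher, and Gstp1, a glutathione S-transferase, was at 4.11 and 83.9 CPM. The lower genes were Slc3a2, which carries the heavy chain of cystine and amino acid transporters, at 585 and 249 CPM, and Mafk, a partner of NRF2 on DNA, at 26 and 11.8 CPM. By family, in control 5 of 7 thioredoxin system genes and 4 of 5 glutathione S-transferases were at least 2-fold higher, as were 1 of 6 peroxiredoxins, Prdx1, and 1 of 3 glutaredoxins, Glrx. Glrx3 was at 242.5 and 232 CPM and Glrx2 at 33.97 and 17.7 CPM, both within 2-fold.

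In mimic embryos 27 of 48 genes of the list were at least 2-fold higher at the later stage and 2 lower, beside 29.1% and 18.8% of all genes, and 20 of 38 and 2 without the members. Hmox1, the haem oxygenase that NRF2 is known to switch on, was at 1.75 and 122 CPM, Srxn1, which repairs overoxidised peroxiredoxins, had no count and 41.45 CPM, at least 427-fold higher, and Gstz1, a glutathione S-transferase, was at 0.841 and 55.8 CPM. By family, 4 of 7 thioredoxin system genes, 4 of 4 glutathione S-transferases, 3 of 6 peroxiredoxins and 1 of 3 glutaredoxins were higher. The lower genes were Bach1, which represses Hmox1, at 232 and 92.7 CPM, and Prdx3, the mitochondrial peroxiredoxin, at 248 and 107.4 CPM.

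**Figure D5:**
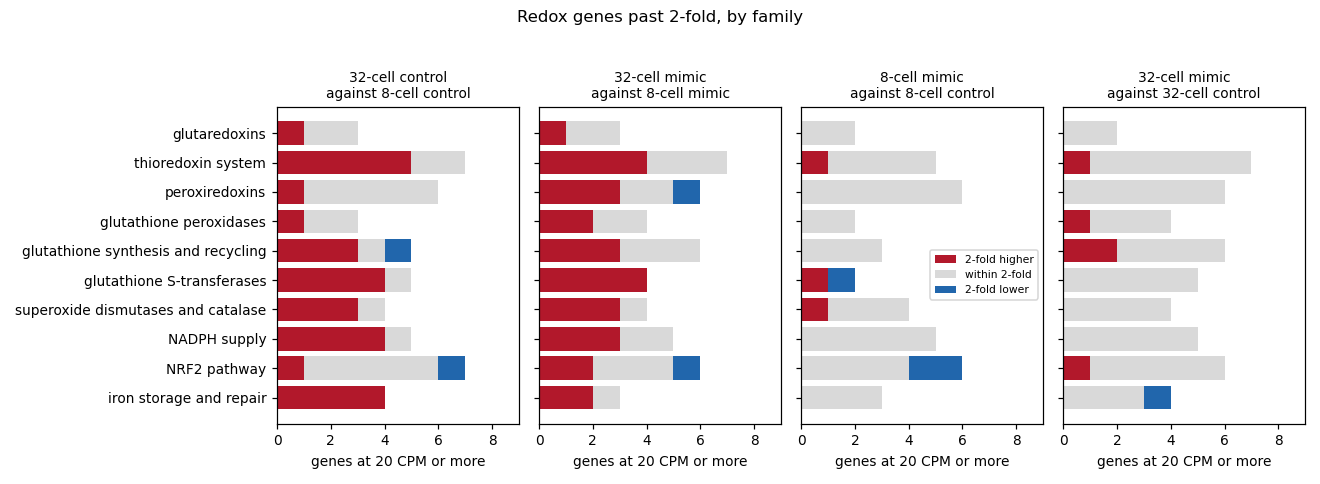
Number of genes of each redox family at 20 CPM or more in either group that were at least 2-fold higher (red), within 2-fold (grey) or at least 2-fold lower (blue) in the 4 comparisons. The stage comparisons hold 27 red genes each, and the comparisons of mimic with control hold 3 at the 8-cell and 5 at the 32-cell stage.

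Between mimic and control few genes of the list passed 2-fold. At the 8-cell stage 3 of 38 were higher in mimic and 3 lower, beside 6.96% and 6.09% of all genes. The higher non-member was Gsta4, a glutathione S-transferase, at 9.12 and 22.1 CPM. The lower genes were Nfe2l2, which encodes NRF2 itself, at 30.6 and 7.60 CPM, Mafk at 26 and 6.86 CPM, and Gsto1, a glutathione transferase, at 238 and 97.5 CPM. At the 32-cell stage 5 of 49 were higher and 1 lower, beside 6.87% and 5.36% of all genes. Beside Gpx3 these were Hmox1 at 20.8 and 122 CPM, Gclc, the catalytic partner of Gclm, at 6.35 and 20.5 CPM, Slc3a2 at 249 and 629 CPM, and Txnrd1, the reductase of thioredoxin, at 88.5 and 195 CPM. Hmox1 had a count in 16 of 39 control and 38 of 39 mimic cells. The lower gene was Msrb2, a mitochondrial methionine sulfoxide reductase, at 46.1 and 7.96 CPM. Nfe2l2 was at 142 and 139.4 CPM there. Txnrd1 was named after its values were seen, to complete the count.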

How the data were processed

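Per the labels and the study's methods, reads of each hand-picked cell were aligned with STAR 2.5.1b and estimated counts per gene were made with RSEM 1.3.0 (versions from the submitters' processing notes) on mouse build GRCm38. The authors deposited these as 1 table of expected counts, which held whole numbers and was not normalised. It was used as deposited. No cell was left out, since none had fewer than 3000 genes or over 10% mitochondrial counts, and no doublet caller was run on cells picked singly.

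Counts of a group were summed and given as CPM without the 13 mitochondrial genes. Log2 changes are differences of log2(CPM + 1), and a change was counted from 2-fold with 20 CPM or more in the higher group. The 3 counts that a 0 allows served as the floor. Each group is 1 sample, so no p-value was computed. The median total per cell was 1260663 counts. Shares of cells were also computed with each cell thinned to 500000 counts. Cells were clustered with Seurat 5.3.0 in R 4.3.3 (2000 variable genes, 25 principal components, resolution 0.8). Everything else ran in Python 3.11.15 with pandas 2.3.3, numpy 2.4.6 and scipy 1.17.1, and the change calls were tested on simulated data. Transcript lengths and 3′ UTRs came from the GENCODE annotation, and upstream windows and the microRNA from RefSeq.

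The 10 members and the lists were chosen with earlier results of these data known. Of the wider list, up to 3 non-members per comparison and direction with the largest log2 change were named, and of the genes most like Glrx up to 5 from a correlation of 0.5. Alternatives changed the total, the normalisation, how cells were combined, depth, pseudocount, filter, fold, the runs and chromosomal types of cells used, the classes and the transcript length.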

Additional observations from a re-analysis of the deposited data

Results flagged for a closer look

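Gpx3 is singled out because its difference between mimic and control pointed in opposite directions at the 2 stages. The log2 change was -2.09 at the 8-cell stage, where pooled Gpx3 (4.36 CPM for control, 0.259 CPM for mimic) stayed under 20 CPM on both sides, and 4.32 at the 32-cell stage, where it was at 3.06 and 79.8 CPM. Without the first run of 8-cell control, which leaves 2 cells with no Gpx3 count, the 8-cell change was 0.33, in the same direction as at the 32-cell stage. The difference between the stages was not tested, since each group is 1 sample. All cells of 32-cell mimic had more Xist than Y-linked counts and all cells of 32-cell control the reverse, so that sex chromosomes and treatment cannot be told apart at that stage. The dose differed between the stages by design, for mimic and control alike, so that dose and stage cannot be told apart.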

How the results depend on the processing

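No paired analysis was possible because the results come from no test, and the numbers that cells of different groups share in their titles mark no shared embryo. Of the counts of members and listed genes past 2-fold, 13 values moved under an alternative and the others stayed within 1.5 times the reported count. This margin takes in the wider list between the stages with no minimum CPM, with 38 higher in place of 27 in control and 40 in place of 27 in mimic. Of the values of single members, 392 stayed within the counting error of the reported change and 342 moved beyond it. None of a member past 2-fold with 20 CPM or more changed sign. Others did, among them Gpx3 at the 8-cell stage, under 20 CPM, from -2.09 to 0.33 without run 1 of control. Without that run Gpx3 between the stages in control went from -0.40 to 2.02. Without run 1 of 32-cell control, mimic against control went from 0.245 to -0.368 for Gclm and from -0.325 to 0.231 for Cat. The log2 ratio of ICM-like to TE-like for Gpx3 in control then went from 1.21 to -0.946. Sod1 at the 8-cell stage went from 0.079 to -0.495 in cells of the Y type. Leaving out runs within the ICM-like and TE-like classes was chosen after seeing the data. With no minimum CPM the wider list held 6 lower genes in place of 2 between the stages in control and 4 in place of 2 in mimic. At the 8-cell stage it then held 7 higher and 13 lower in place of 3 and 3, and at the 32-cell stage 4 lower in place of 1. At the 8-cell stage the members lower in mimic, 0 as reported, were 1 with the mean of log2 values over cells, 1 with no minimum CPM, 2 at 1.5-fold, and 0 to 1 when a run was left out (1, Prdx2, without run 1 of control, which leaves 2 cells). The members higher there were 1 in place of 2 with cells of the Y type alone. At the 32-cell stage the members lower in mimic, 0 as reported, were 1 with the mean of log2 values, 2 at 1.5-fold and 0 to 1 when a run was left out (1, Glrx, without run 3 of mimic). The cause of these moves was not tested, apart from the lower fold and filter, which admit more genes. Low counts, of 14 or fewer in a group for Glrx at the 8-cell stage and 8 for Gpx3 in 8-cell mimic, and 1 sample in each group with embryos unknown, limit what can be said of these genes there.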
